A study of Mus musculus and Homo sapiens with 12 samples.

Results

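The genes examined here are 10 genes that carry butyrate into and out of colon cells, sense it or oxidise it: SLC16A1, SLC16A3, SLC16A4, SLC5A8, BSG, FFAR2, FFAR3, HCAR2, ACADS and ABCG2. They were chosen by name, and all 10 were found among the 20033 protein-coding genes of the human annotation and, as the mouse genes of the same name, among the 21887 protein-coding genes of the mouse annotation. CUT&Tag, which maps a histone mark by directing a transposase to it through an antibody, had been run on lysine butyrylation (Kbu) of H3K18 and H4K12 and, in mouse, on acetylation (Kac) of the same residues. The human cells were CCD841, an established line derived from normal colon and labelled epithelial, given 1 mM sodium butyrate (NaBu) for 12 to 16 h by the labels, with 2 replicates per Kbu mark. The mouse samples were large intestine of male CETP-ApoB-100 transgenic mice, 2 replicates for each of H3K18bu, H4K12bu, H3K18ac and H4K12ac. By the labels, the Kac libraries came from mice on a high fat, high sucrose diet and the Kbu libraries from mice whose same diet was supplemented with 5% arabinoxylan, a fermentable fiber, so that acyl group and diet cannot be told apart. The study used 2 mice per condition, so that, where a condition is a diet, the 4 libraries of a diet shared animals. The study's methods instead describe control mice kept on a low fat diet, so which diet the Kac mice ate is uncertain. The ages of the mice were not given in the labels. No library of untreated CCD841 cells was analysed here, so nothing below is an effect of NaBu.

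Butyrate is made by gut bacteria from fiber and is the main fuel of colon epithelial cells. It enters them through the proton-coupled carrier MCT1 (SLC16A1) and the sodium-coupled carrier SMCT1 (SLC5A8), and the related carriers MCT4 (SLC16A3) and SLC16A4 belong to the same family as MCT1. Basigin (BSG) is the chaperone that brings MCT1 and MCT4 to the plasma membrane, and ABCG2 is an ATP-driven efflux pump that has been described as a butyrate exporter. FFAR2, FFAR3 and HCAR2 are G protein-coupled receptors for short-chain fatty acids, and HCAR2 also binds niacin. Inside the mitochondrion, short-chain acyl-CoA dehydrogenase (ACADS) carries out the first step of the oxidation of butyryl-CoA, the same molecule that donates the butyryl group to histone lysines.

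Each library had its own peak calls. Overlapping peaks of a library were merged to regions, and every region that touched a gene or the 10 kb on either side of it was taken. A consensus region is a stretch called in both replicates of a mark. The 4 CCD841 lists held 207129 to 282656 regions, the 4 mouse Kac lists 297745 to 299480 and the 4 mouse Kbu lists 50645 to 96332. Before merging, the CCD841 and Kac lists held 299296 to 299861 peaks, close to the limit of 300000 per list. The weakest listed peak thus differed between libraries. Its −log10 p was 5.31 and 4.56 for CCD841 H3K18bu, 4.81 and 2.97 for CCD841 H4K12bu, 2.01 to 2.75 for Kac and 2.01 for Kbu in mouse. The pileup of a peak, the number of extended read ends stacked there, had a median of 15, 12, 15 and 7 in the CCD841 libraries (H3K18bu replicates 1 and 2, then H4K12bu replicates 1 and 2). In the mouse Kbu libraries 89.2% to 91.4% of peaks had a pileup of 1, that is a single read end over an almost empty background, and in the Kac libraries 12.8% to 72.1% did. Counting error at a pileup of 1 is as large as the value, so a mouse Kbu region in 1 library describes that library only.

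The labelled tissue was checked against defining markers. In mouse intestine 9 of 11 epithelial marker genes had an H3K18bu consensus region, against 2 of 10 fibroblast, 0 of 5 smooth muscle and 1 of 6 immune markers. Of all protein-coding mouse genes 20.5% had one. H4K12bu was found at 8 of 11 epithelial, 3 of 10 fibroblast, 2 of 5 smooth muscle and 1 of 6 immune markers (33.7% of all genes). H3K18ac was found at 11 of 11, 4 of 10, 4 of 5 and 4 of 6 (58.7%) of the same lists in turn and H4K12ac at 9 of 11, 5 of 10, 4 of 5 and 4 of 6 (61.4%). At start sites H3K18bu was shared by replicates at 3 of the 8 epithelial markers with a known start, Krt8, Vil1 and Cdx2, genes of a keratin, of the brush border protein villin and of an intestinal transcription factor, and at 0 of 4 fibroblast, 0 of 3 smooth muscle and 0 of 3 immune markers, while H4K12bu was at 1 of the 8 epithelial starts and at none of the others. H3K18ac was at 4 of the 8 epithelial, 0 of 4 fibroblast, 1 of 3 smooth muscle and 0 of 3 immune starts, and H4K12ac at 2 of the 8 epithelial starts and none of the others. In CCD841 cells 9 of 11 epithelial, 10 of 10 fibroblast, 4 of 5 smooth muscle and 5 of 5 immune markers had an H3K18bu consensus region, where 75.8% of all protein-coding genes had one. H4K12bu was found at 7 of 11, 9 of 10, 5 of 5 and 4 of 5 of them, where 76.6% of all genes had it. H3K18bu lay at the start site of 2 of 11 epithelial, 2 of 10 fibroblast, 1 of 5 smooth muscle and 2 of 5 immune markers, and H4K12bu at that of 1 marker of each list. The lists held 36 H3K18bu and 18 H4K12bu regions at the epithelial, 54 and 46 at the fibroblast, 20 and 21 at the smooth muscle and 22 and 13 at the immune markers. Markers of every list, immune ones included, thus carried Kbu in these cells, at shares around those of all genes. The part of cell identity in the results below was not tested.

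In butyrate-treated CCD841 cells, 6 of the 10 genes had an H3K18bu consensus region in their window, where 75.8% of all protein-coding genes had one, and 8 of 10 had an H4K12bu consensus region, where 76.6% did. The 10 windows together held 20 H3K18bu and 29 H4K12bu consensus regions, or 3.62 and 5.26 per 100 kb, against 4.76 and 5.11 per 100 kb over all protein-coding windows. The median per gene was 1.0 for H3K18bu and 1.5 for H4K12bu, and 2.0 for each mark over all protein-coding genes. A consensus region lay within 1 kb of the start of the canonical transcript in 1 of 10 genes for H3K18bu, against 32.7% of protein-coding genes, and in 1 of 10 for H4K12bu, against 14.9%. That gene was ACADS for both marks. Most regions lay elsewhere: 13 of the 20 H3K18bu regions were intronic, 1 exonic, 3 downstream and 2 upstream of a gene, and of the 29 H4K12bu regions 11 were intronic, 6 exonic, 7 downstream and 4 upstream. The shares of genes with a region were thus near or below the shares of all genes, and FFAR2 and HCAR2 had no consensus region of either mark.

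**Figure D1:**
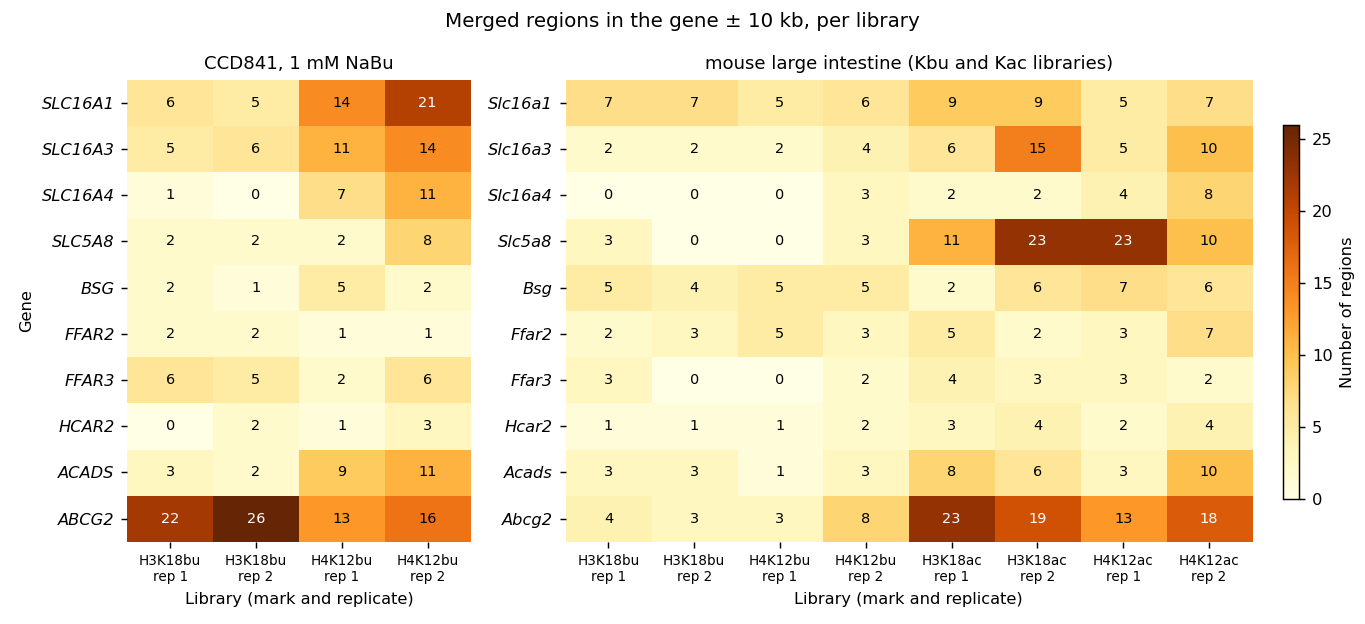
Number of merged regions in each gene and the 10 kb on either side of it, per library, in CCD841 cells (left) and mouse large intestine (right), with darker cells for more regions. ABCG2 had 22 and 26 H3K18bu regions in CCD841 cells, SLC16A1 had 14 and 21 H4K12bu regions, and in the intestine Slc5a8 had 10 to 23 regions in the Kac libraries and 0 to 3 in the Kbu libraries.

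ACADS (ENSG00000122971.9, chr12:120725774-120740008, plus strand, GRCh38) was the gene with butyrylation shared by replicates at its canonical start. An H3K18bu consensus region at chr12:120725636-120726095 covered the start site of its canonical transcript at 120725826. Its strongest peak had a pileup of 12 in replicate 1 and 9 in replicate 2, 5.41-fold and 4.72-fold over the local background. An H4K12bu consensus region at chr12:120725687-120725902 overlapped it, with pileups of 18 and 6 and 4.58-fold and 3.14-fold enrichment. Of all H3K18bu regions of the respective library 65.5% and 59.8% were weaker than the H3K18bu region, and of all H4K12bu regions 77.7% and 14.7% were weaker than the H4K12bu region, which thus stood low in the list of replicate 2. The −log10 q of the H4K12bu region was 5.98 in replicate 1 but 1.22 in replicate 2, and with peaks of q below 0.05 alone no gene of the 10 kept H4K12bu at its start.

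H4K12bu was also called at separate places in the body of ACADS. Libraries held 9 and 11 H4K12bu regions in its window, against 3 and 2 H3K18bu regions. The replicates shared 7 H4K12bu regions, and 20.9% of protein-coding genes had as many or more. This made 20.4 per 100 kb, the highest density of H4K12bu among the 10 genes. Of the 7 shared regions, 4 overlapped exons between 10950 and 12968 bp downstream of the start. The strongest, at chr12:120737726-120737832 and chr12:120738455-120739134, had a pileup of 48 each in replicate 1, where 98.5% of all regions were weaker, but pileups of 13 and 9 in replicate 2, where 81.3% and 0.0103% were weaker. None of these 4 had an H3K18bu consensus region, and 1 overlapped H3K18bu of 1 replicate. With peaks of q below 0.05 alone the 10 windows kept 19 of the 29 H4K12bu consensus regions, since 54.7% of the regions of H4K12bu replicate 2 met that threshold and 100.0% of those of the other 3 libraries.

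SLC16A1 (ENSG00000155380.13, chr1:112911847-112957593, minus strand) had 6 and 5 H3K18bu regions and 14 and 21 H4K12bu regions in the libraries. The replicates shared 3 H3K18bu and 7 H4K12bu regions, 4.56 and 10.6 per 100 kb. Both H4K12bu libraries held more regions than both H3K18bu libraries, as they did at 43.6% of all protein-coding genes, whose medians were 4.0 regions in each H3K18bu library and 6.0 and 7.0 in the H4K12bu libraries. Of the 3 H3K18bu regions, 2 coincided with H4K12bu, at chr1:112915391-112915907 and chr1:112923297-112924012, both in introns and 40547 and 32542 bp downstream of the canonical start, the latter beside the start of the pseudogene AKR7A2P1. The first of these had pileups of 15 and 10 for H3K18bu and of 22 and 7 for H4K12bu. No consensus region of either mark lay within 1 kb of the canonical start at 112956196. H3K18bu was called there at chr1:112955610-112956303 in replicate 1 and at chr1:112956671-112956744 in replicate 2, and these did not overlap. H4K12bu was called there at chr1:112956151-112956239 in replicate 2 alone. A weaker H4K12bu consensus region at chr1:112957543-112957748, with pileups of 9 and 5, reached the outermost annotated transcript start at 112957593, within 1 kb of the start of the antisense gene SLC16A1-AS1. Only 0.88% and 7.91% of the regions of the respective H4K12bu libraries were weaker than it, so it stood near the threshold of both lists.

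The DNA ahead of these genes is shown where Kbu reached the first annotated base. The 200 bases before the first annotated base of each gene are shown in the direction of transcription, with matches on either strand in capitals. The letters searched were GGGCGG, known for Sp1 and related factors, CCAAT, known for NF-Y, CACGTG, the E-box, TATAAA, the TATA box, and TGACTCA, known for AP-1. The intestinal Slc16a1 start, where mouse H3K18bu was called in both replicates, is set beside them (RefSeq, GRCm38.p6). The ACADS stretch ends close to the canonical start, whereas that of SLC16A1 precedes the outermost transcript start and not the canonical one, so their compositions are not those of like positions.
ACADS, chr12:120725574-120725773, plus strand, H3K18bu and H4K12bu in CCD841: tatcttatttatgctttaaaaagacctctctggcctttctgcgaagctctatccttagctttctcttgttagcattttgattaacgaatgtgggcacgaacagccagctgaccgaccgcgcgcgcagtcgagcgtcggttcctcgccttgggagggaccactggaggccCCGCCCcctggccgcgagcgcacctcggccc
SLC16A1, chr1:112957594-112957793, minus strand, H4K12bu in CCD841: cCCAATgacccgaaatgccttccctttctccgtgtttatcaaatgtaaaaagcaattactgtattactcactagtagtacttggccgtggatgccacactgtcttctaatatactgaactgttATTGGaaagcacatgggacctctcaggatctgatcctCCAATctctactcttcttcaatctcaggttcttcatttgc
Slc16a1, chr3:104638464-104638663, plus strand, H3K18bu in mouse intestine: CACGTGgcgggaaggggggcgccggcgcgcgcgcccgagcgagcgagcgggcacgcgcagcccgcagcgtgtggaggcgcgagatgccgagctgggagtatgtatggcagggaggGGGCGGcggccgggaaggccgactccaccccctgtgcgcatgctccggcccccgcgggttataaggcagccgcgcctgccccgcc

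The ACADS stretch was 57.5% G and C with 17 CpG and held 1 GGGCGG. The SLC16A1 stretch was 42.0% G and C with 3 CpG and held 3 matches to CCAAT and none to GGGCGG. The mouse Slc16a1 stretch was 77.5% G and C with 30 CpG and held 1 GGGCGG and 1 CACGTG. Over all protein-coding human genes the same 200 bases had a median of 61.0% G and C and 12 CpG, 46.8% of them held GGGCGG and 29.4% held CCAAT. Over the mouse start sites the median was 53.0% G and C and 5 CpG, 31.0% held GGGCGG and 5.26% held CACGTG. These are matches of letters and were not tested as binding sites.

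SLC16A3 (ENSG00000141526.18, chr17:82217934-82261129, plus strand) had 5 and 6 H3K18bu regions and 11 and 14 H4K12bu regions. As at SLC16A1, the H4K12bu libraries held more regions than the H3K18bu libraries, which is also the order of the medians over all genes. With peaks of q below 0.05 alone the libraries met, with 11 and 6 H4K12bu against 5 and 6 H3K18bu regions. The replicates shared 3 H3K18bu and 5 H4K12bu regions, and 2 of the 3 H3K18bu regions coincided with H4K12bu. One of these, an H3K18bu region at chr17:82218713-82219643, had pileups of 23 and 17 and lay at −9864 bp from the canonical start (negative distances are upstream) but 779 bp from the outermost annotated transcript start. The strongest H4K12bu region of the window, at chr17:82263254-82264002, lay in the downstream flank, inside the neighbouring kinase gene CSNK1D, and had pileups of 27 and 11. An exonic H4K12bu region at chr17:82236497-82237070, with pileups of 26 and 10, lay beside the start of the microRNA gene MIR6787.

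SLC16A4 (ENSG00000168679.18, chr1:110362851-110391082, minus strand) had 1 and 0 H3K18bu regions and 7 and 11 H4K12bu regions. No H3K18bu region was shared by the replicates. The 2 shared H4K12bu regions lay at −5382 and −8866 bp from its start, with pileups of 18 and 6 for the nearer and 15 and 7 for the farther, both inside LAMTOR5-AS1. Both H4K12bu libraries exceeded both H3K18bu libraries at these 3 carriers and at ACADS, 4 of the 10 genes against the 43.6% of all genes, and the reverse held at ABCG2 and FFAR2, 2 of 10 against 16.0%. With peaks of q below 0.05 alone SLC16A3 lost the H4K12bu excess, while SLC16A1, SLC16A4 and ACADS kept it.

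SLC5A8 (ENSG00000256870.3, chr12:101155493-101210238, minus strand) had 2 and 2 H3K18bu and 2 and 8 H4K12bu regions. The marks met at 1 place, an intronic stretch called at chr12:101173325-101173668 for H3K18bu and at chr12:101173381-101173736 for H4K12bu, 36742 and 36680 bp downstream of the start. The H3K18bu pileups there were 12 and 8, and those of H4K12bu 11 and 9. No other region of SLC5A8 was shared by replicates, and its density of 1.34 regions per 100 kb for each mark was below that of all protein-coding windows.

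BSG (ENSG00000172270.22, chr19:571277-583494, plus strand) had 2 and 1 H3K18bu and 5 and 2 H4K12bu regions. Its only consensus region was an H4K12bu region in the downstream flank at chr19:585294-585453 with pileups of 14 and 9. No region inside the gene was shared by the replicates of either mark.

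ABCG2 (ENSG00000118777.12, chr4:88090150-88231628, minus strand) carried the strongest butyrylation of the 10 genes by −log10 p. H3K18bu gave 22 and 26 regions and H4K12bu 13 and 16, and 9 and 5 were shared by replicates. The gene is long, and per 100 kb these were 5.57 and 3.10 regions, against 4.76 and 5.11 over all protein-coding windows. The strength of 1 region stood out. The H3K18bu region at chr4:88177846-88179215 had pileups of 53 and 43, 11.3-fold and 10.8-fold over background, and was number 275 of the 211088 regions of replicate 1 and number 394 of the 229104 of replicate 2. H4K12bu was called over it at chr4:88178053-88179198, with pileups of 38 and 11, as number 438 of 207129 and number 2384 of 282656. The region lies at −19892 bp from the canonical start, in an intron of the longer transcripts. No consensus region of either mark lay within 1 kb of any annotated ABCG2 transcript start. The middle 200 bases of this region, on the strand of the gene, held 1 match to TGACTCA, shown in capitals.
ABCG2, chr4:88178431-88178630, minus strand: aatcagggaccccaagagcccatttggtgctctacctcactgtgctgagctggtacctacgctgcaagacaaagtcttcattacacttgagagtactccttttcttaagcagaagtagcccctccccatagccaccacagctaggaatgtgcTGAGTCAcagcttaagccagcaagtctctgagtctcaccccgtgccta
Of the middle 200 bases of all 108536 CCD841 H3K18bu consensus regions 8.03% held TGACTCA on either strand, and of the 200 bases before all protein-coding genes 2.80% did.

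A second strong ABCG2 region lay at chr4:88121977-88122839, in an intron 36231 bp downstream of the start, with H3K18bu pileups of 27 and 20 and an H4K12bu region over it. The third place with both marks was at chr4:88084009-88084808, in the downstream flank, with H3K18bu pileups of 26 and 25. The other 6 H3K18bu regions of ABCG2 had pileups of 8 to 21 and no H4K12bu consensus region, though 1 of them met H4K12bu of 1 replicate. Over all 10 genes, 10 of the 20 H3K18bu regions met an H4K12bu consensus region, where 34.4% of all H3K18bu consensus regions did, and 10 of the 29 H4K12bu regions met an H3K18bu one, where 41.8% did.

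**Figure D2:**
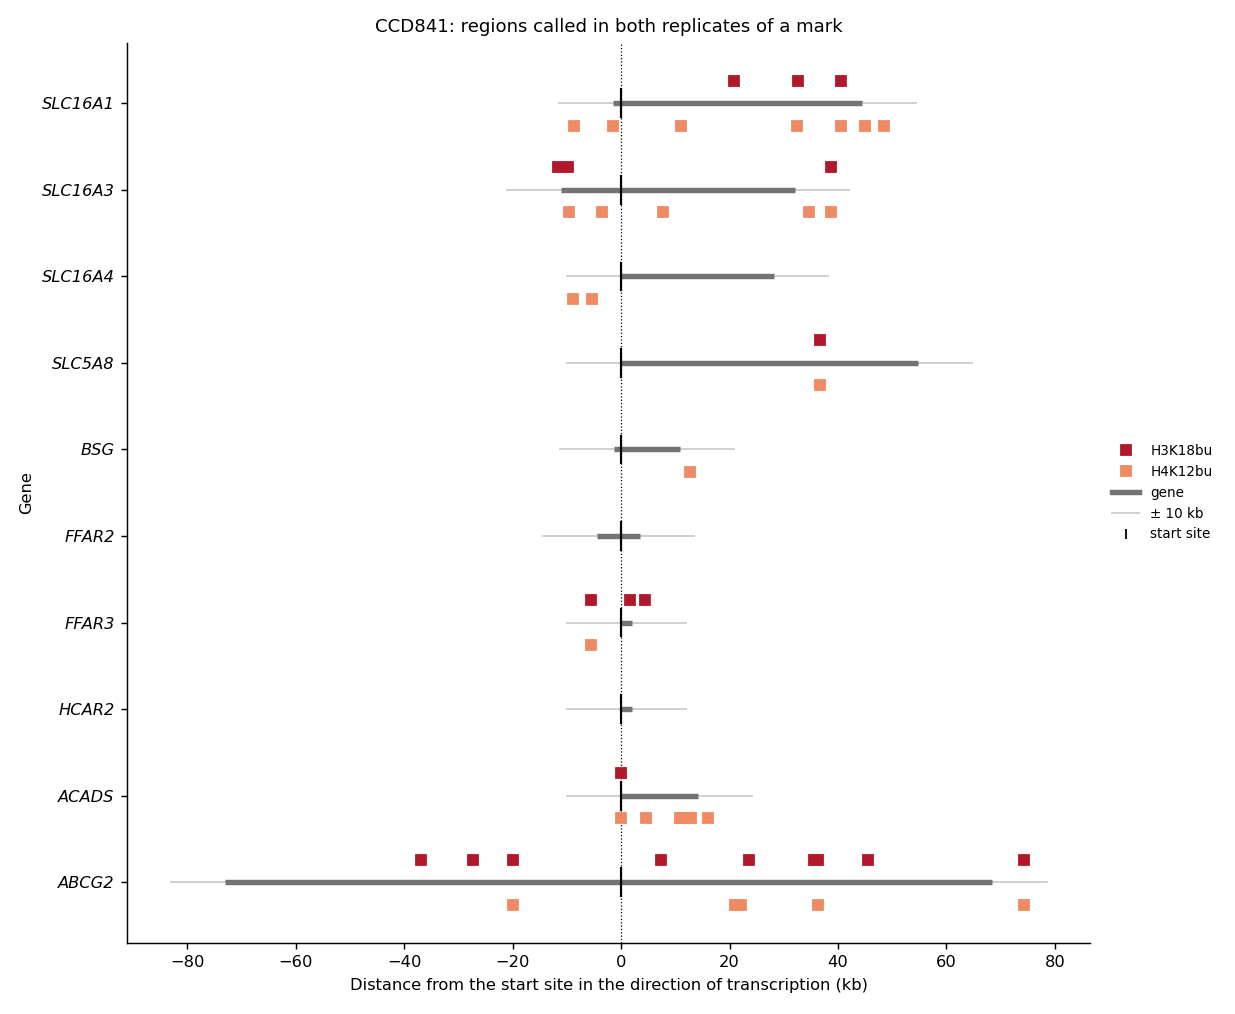
Position of the regions called in both CCD841 replicates along each gene, in kb from the canonical start site in the direction of transcription, with H3K18bu above and H4K12bu below the gene. ACADS alone has both marks at the dotted line, SLC16A1 and SLC16A3 have 7 and 5 H4K12bu regions against 3 H3K18bu regions each, and FFAR2 and HCAR2 have none.

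The receptors had few regions. FFAR2 (ENSG00000126262.5, chr19:35443907-35451767, plus strand) had 2 regions in each H3K18bu library and 1 in each H4K12bu library, none shared by replicates. HCAR2 (ENSG00000182782.8, chr12:122701293-122703357, minus strand) had 0 and 2 H3K18bu and 1 and 3 H4K12bu regions, again none shared. FFAR3 (ENSG00000185897.7, chr19:35358460-35360489, plus strand) differed from them, with 6 and 5 H3K18bu and 2 and 6 H4K12bu regions. Its window is short, and its 3 H3K18bu consensus regions made 13.6 per 100 kb, the highest H3K18bu density of the 10 genes. The strongest was at chr19:35352887-35353089, at −5472 bp from the start, with pileups of 24 and 16, and 95.3% and 90.2% of the regions of the respective library were weaker. H4K12bu was called there with a pileup of 23 in replicate 1 and 5 in replicate 2. Another H3K18bu region overlapped the exon, 1724 bp downstream of the start, with pileups of 17 and 15. Both upstream regions lie inside FFAR1, the receptor gene for medium- and long-chain fatty acids. GPR42 is a near-identical copy of FFAR3 and HCAR3 one of HCAR2, and how reads were divided between copies is not given in the sources used here, so the values of FFAR3 and HCAR2 are uncertain for that reason. GPR42 had 2 H3K18bu consensus regions and no H4K12bu one, and HCAR3 1 and 0.

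In mouse large intestine, consensus regions of Kbu were found at 3 of the 10 genes for each residue, Slc16a1, Bsg and Abcg2 for H3K18bu and Slc16a1, Slc16a3 and Bsg for H4K12bu. Of all protein-coding genes 20.5% had an H3K18bu and 33.7% an H4K12bu consensus region. The windows held 9 H3K18bu and 6 H4K12bu consensus regions, 2.1 and 1.4 per 100 kb, against 0.488 and 0.764 per 100 kb over all protein-coding windows. H3K18ac was found at 7 of 10 genes, where 58.7% of protein-coding genes had it, and H4K12ac at 6 of 10, where 61.4% had it, with 21 and 11 regions or 4.90 and 2.56 per 100 kb against 2.33 and 2.37. Start sites were known for 8 genes. Within 1 kb of them H3K18bu was shared by replicates at 1 gene (7.02% of 17492 protein-coding genes), H4K12bu at 0 (16.7%), H3K18ac at 5 (23.8%) and H4K12ac at 3 (27.6%). The 5 genes with H3K18ac at the start were Slc16a1, Slc16a3, Ffar2, Ffar3 and Abcg2, and the 3 with H4K12ac were Slc16a4, Slc5a8 and Abcg2.

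The Kbu regions of the intestine were made of very few reads. Of the 9 H3K18bu consensus regions 4 had a pileup of 1 in both replicates, and the other 5 had a pileup above 1 in 1 replicate only. Of the 6 H4K12bu regions 3 had a pileup of 1 in both and 3 a pileup of 2 in 1 replicate. None had a pileup above 1 in both replicates, and none had a q below 0.05 in both, in contrast to 9 of 21 H3K18ac and 1 of 11 H4K12ac regions. The CCD841 consensus regions had pileups of at least 10 and 7 (H3K18bu) and 9 and 5 (H4K12bu).

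**Figure D3:**
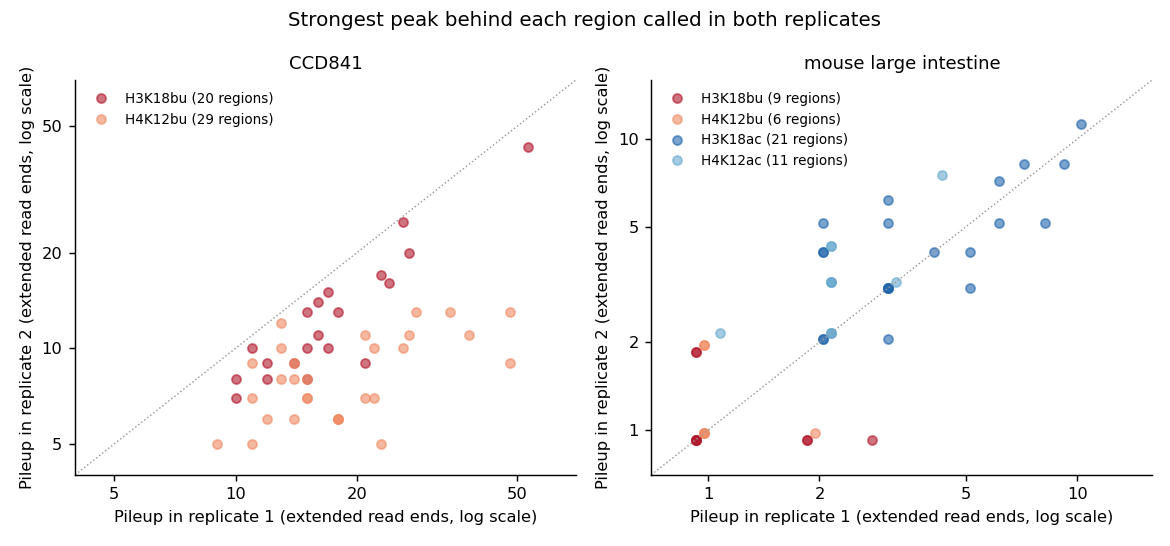
Pileup of the strongest peak behind each consensus region of the 10 genes, replicate 1 against replicate 2, on log scales, in CCD841 cells (left) and mouse large intestine (right), where marks are displaced slightly so that equal values can be seen. The CCD841 regions lie between 5 and 53, the mouse Kbu regions between 1 and 3 and the mouse H3K18ac regions between 2 and 11.

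Slc16a1 (GeneID 20501, chr3:104638664-104658462, plus strand, GRCm38) had the most Kbu consensus regions of the 10 genes, 5 for H3K18bu and 3 for H4K12bu, and 0.608% and 4.03% of protein-coding genes had as many or more. The libraries held 7, 7, 5 and 6 Kbu regions in its window (H3K18bu replicates 1 and 2, H4K12bu replicates 1 and 2) and 9, 9, 5 and 7 Kac regions. Kbu and Kac libraries overlapped. H3K18bu lay at its start in both replicates, at chr3:104638500-104638676 with a pileup of 1 and 1 and at chr3:104639112-104639377 with 2 and 1. The nearest H3K18ac consensus region, at chr3:104637726-104638353 with pileups of 2 and 2, lay just upstream and did not overlap either. The highest H3K18ac pileups of the window lay downstream of the gene, with pileups of 7 and 8 at chr3:104664635-104664869 and of 6 and 7 at chr3:104660557-104660958, while by −log10 p the strongest H3K18ac region of replicate 2 lay inside the gene at chr3:104643848-104644198, with 7.26 against 6.13. H3K18bu was called in both replicates at each of these 3 places, and H4K12bu at the first. At the first, the H3K18bu peak of replicate 1 (pileup 1) and the H3K18ac peak of replicate 2 (pileup 8) had the same bounds, chr3:104664643-104664826. Of the 5 H3K18bu regions, 3 met an H3K18ac consensus region.

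Slc16a3 (GeneID 80879, chr11:120948484-120959000, plus strand) had 2, 2, 2 and 4 Kbu and 6, 15, 5 and 10 Kac regions, given in the same order of libraries. Every Kac library lay above every Kbu library. Both H3K18ac replicates had a region at the start, of pileup 5 and 3. Its single Kbu consensus region was an H4K12bu region 1768 bp downstream of the start with a pileup of 1 and 1, on an H4K12ac consensus region with pileups of 2 and 4. Slc16a4 (GeneID 229699, chr3:107291230-107312115, plus strand) had 0, 0, 0 and 3 Kbu and 2, 2, 4 and 8 Kac regions. The only region its replicates shared was H4K12ac at the start site, with pileups of 2 and 2.

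Slc5a8 (GeneID 216225, chr10:88885992-88929515, plus strand) had 3, 0, 0 and 3 Kbu and 11, 23, 23 and 10 Kac regions, the widest gap of the 10 genes over all listed regions, while with a pileup of at least 2 the gap was wider at Abcg2 (a difference of −14.8 regions against −5.5). Only 8.22% of its regions were Kbu. No Kbu region was shared by replicates, whereas H4K12ac was shared at 3 places, 1 of them at the start site with pileups of 2 and 3. H3K18ac was called within 1 kb of the start in each replicate, with pileups of 2 in replicate 1 and of 3 to 4 in replicate 2, but at places that did not overlap.

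Bsg (GeneID 12215, chr10:79704358-79711979) had 5, 4, 5 and 5 Kbu and 2, 6, 7 and 6 Kac regions, and 47.5% of its regions were Kbu, the highest share of the 10 over all listed regions. With a pileup of at least 2, however, Bsg had 1, 1, 0 and 3 Kbu against 2, 6, 6 and 6 Kac regions. The reference used gave no start site or strand for it. H3K18bu and H4K12bu were both shared by replicates at about chr10:79698099-79698314, outside the gene, over an H3K18ac consensus region with pileups of 9 and 8. The H3K18bu pileups there were 2 and 1, and those of H4K12bu 1 and 2. The peaks of H3K18bu replicate 2 and H4K12bu replicate 1 had the same bounds, chr10:79698106-79698283. Whether these are independent calls was not tested. A second H4K12bu region, at chr10:79705028-79705295 with pileups of 1 and 2, lay within 1 kb of a gene end and met no H3K18ac or H4K12ac region.

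Abcg2 (GeneID 26357, chr6:58584491-58692451, plus strand) had 4, 3, 3 and 8 Kbu and 23, 19, 13 and 18 Kac regions, with every Kac library above every Kbu library. It carried 8 H3K18ac and 4 H4K12ac consensus regions, and 3.01% and 12.4% of protein-coding genes had as many or more. The strongest lay inside the gene at chr6:58661201-58661493, where H3K18ac had pileups of 10 and 11, 8.71-fold and 8.26-fold over background. H3K18bu was called there as well, with pileups of 3 and 1, and again at chr6:58678452-58678821, with 1 and 1, over consensus regions of both Kac marks. Both Kac marks also lay at the third annotated start site, 58640546, where H3K18ac had pileups of 6 and 5 and H4K12ac of 4 and 7. Each Kbu mark was called there too, but not as a region shared by its replicates. The H4K12bu peak of replicate 2, at chr6:58640387-58640581, had a pileup of 2. The 200 bases before the start site at 58640546 are shown because both acetyl marks but no shared Kbu region were found there. They were 74.5% G and C, against a median of 53.0% over the mouse start sites, and held 4 matches to GGGCGG, in capitals.
Abcg2, chr6:58640346-58640545, plus strand, GRCm38.p6: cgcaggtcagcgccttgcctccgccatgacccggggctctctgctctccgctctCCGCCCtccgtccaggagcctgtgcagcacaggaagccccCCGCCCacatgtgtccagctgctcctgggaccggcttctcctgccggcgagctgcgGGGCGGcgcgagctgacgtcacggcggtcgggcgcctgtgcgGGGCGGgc

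The mouse receptor genes had no Kbu consensus region. Ffar2 (GeneID 233079) had 2, 3, 5 and 3 Kbu and 5, 2, 3 and 7 Kac regions, and 43.3% of its regions were Kbu, where 21.2% of those of all genes were, but with a pileup of at least 2 it had 0 regions in each Kbu library against 3, 2, 3 and 7 Kac regions. Ffar3 (GeneID 233080) had 3, 0, 0 and 2 Kbu and 4, 3, 3 and 2 Kac regions. Each had 1 consensus region, H3K18ac within 1 kb of a start site with pileups of 3 and 3, and no consensus region of another mark. Ffar2 had 4 listed start sites and Ffar3 had 1. Hcar2 (GeneID 80885) had 1, 1, 1 and 2 Kbu and 3, 4, 2 and 4 Kac regions, and no place was shared by the replicates of any mark. Acads (GeneID 11409) had 3, 3, 1 and 3 Kbu and 8, 6, 3 and 10 Kac regions. Its 2 consensus regions were H3K18ac, 1 inside the gene 1535 bp downstream of the start with pileups of 2 and 4, and 1 in the upstream flank, inside Unc119b, with 3 and 2.

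**Figure D4:**
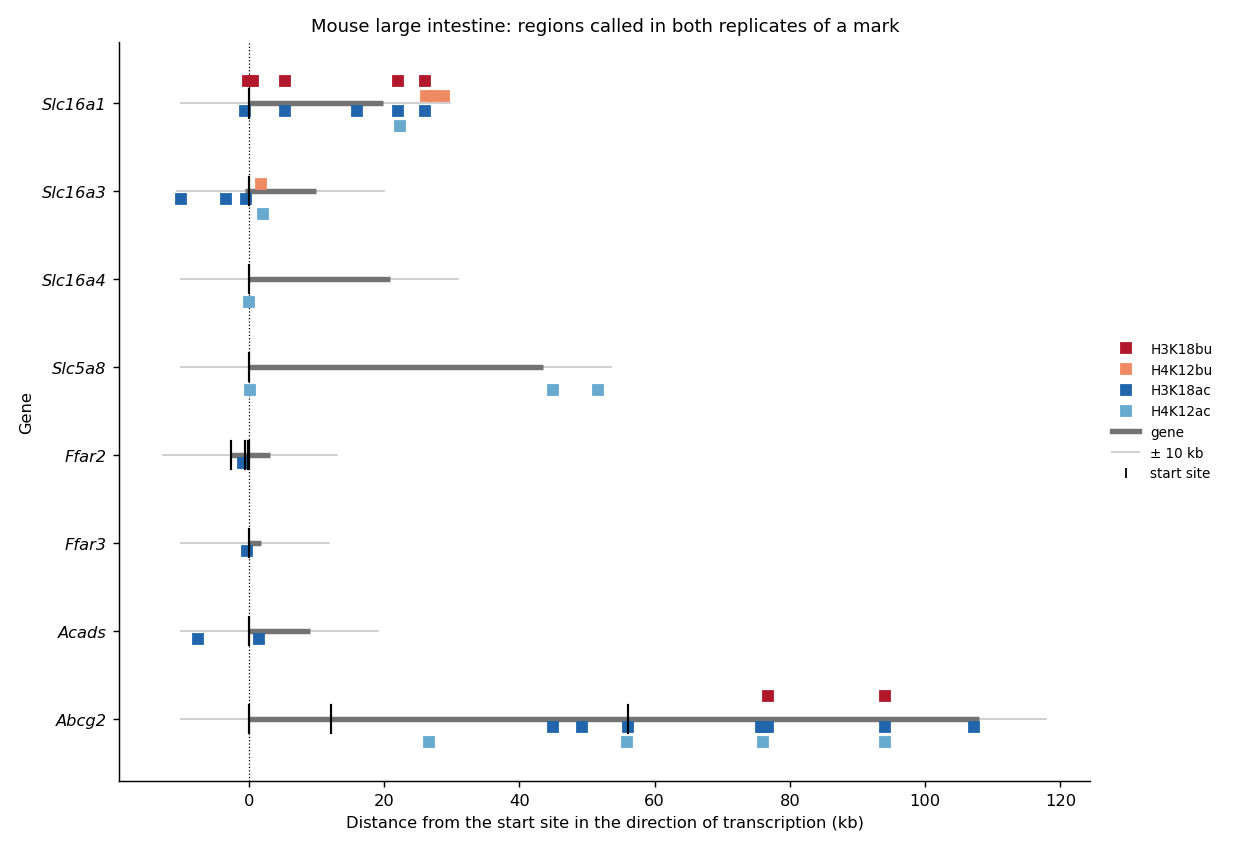
Position of the regions called in both replicates of a mark along the 8 mouse genes with a known start site, in kb from the listed start site of lowest coordinate in the direction of transcription, the marks in 4 rows and each start site as a tick. Slc16a1 has H3K18bu at its start and at 3 other places, the start sites of Slc16a4 and Slc5a8 have H4K12ac, and Abcg2 has acetylation of both residues at the start site at 58640546.

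Kbu was compared with Kac over the 4 and 4 mouse libraries by the number of regions per gene window, with a two-sided exact permutation test adjusted by Benjamini-Hochberg over all 49943 genes. Marks of the same mice are not independent replicates, so p-values over 4 libraries are too small where animals were shared. The smallest p that 70 assignments allow is 0.0286, and no gene passed an adjusted p of 0.05 (0 of 49943, 0.0% called), which at that smallest p would have needed most genes to reach it. At an unadjusted p below 0.05 the exact test had 11706 genes with fewer and 10 with more Kbu than Kac regions, against 147 with fewer and 196 with more when the same number of strongest regions was taken from every library. All 10 genes had a lower mean in the Kbu libraries, and 5 a lower and 4 a higher one with equal numbers of regions. At 3 genes, Slc16a3, Slc5a8 and Abcg2, every Kac library lay above every Kbu library, where 23.4% of all genes did so. No gene of the 10 had every Kbu library above every Kac library, where 0.02% of all genes did. Slc16a3 had 2.5 ± 1.0 Kbu and 9.0 ± 4.55 Kac regions (SD, n = 4 each, exact permutation p = 0.0286, adjusted p = 0.122). Slc5a8 had 1.5 ± 1.73 and 16.75 ± 7.23, and Abcg2 4.5 ± 2.38 and 18.25 ± 4.11, with the same p and adjusted p by the exact permutation test. Slc16a1 had 6.25 ± 0.957 and 7.5 ± 1.91 (exact permutation p = 0.40, adjusted p = 0.57) and Bsg 4.75 ± 0.5 and 5.25 ± 2.22 (exact permutation p = 0.829, adjusted p = 0.992), with the Kbu and Kac libraries of both genes overlapping. The median difference was −2.625 regions over the 10 genes and −2.5 over all genes.

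**Figure D5:**
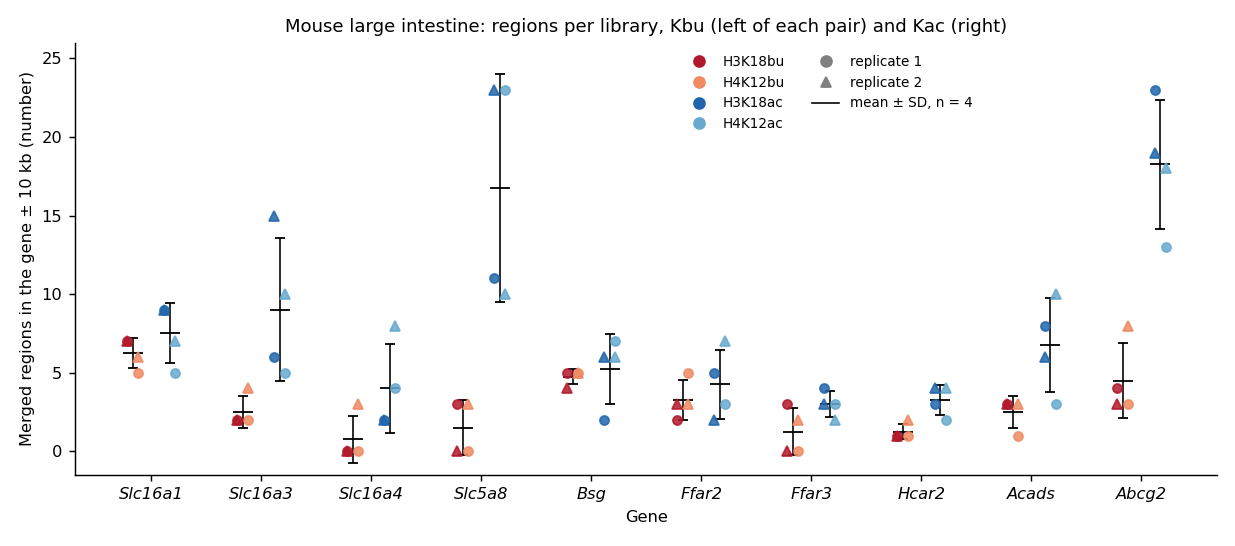
Number of regions in each mouse gene and its 10 kb flanks, per library, with the mean and SD of the 4 Kbu and the 4 Kac libraries. The Kbu and Kac points of Slc16a3, Slc5a8 and Abcg2 do not overlap, whereas those of Slc16a1 (5 to 7 against 5 to 9) and Bsg (4 to 5 against 2 to 7) do.

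The length of the lists moves with this comparison, since the Kac lists held 297745 or more regions and the Kbu lists 96332 or fewer. Kbu made 26.8% of the regions of the 10 genes and 21.2% of those of all genes. When the same number of strongest regions, 50645, was taken from every library, Bsg had 3, 4, 5 and 3 Kbu against 2, 1, 0 and 2 Kac regions. It was then the only gene of the 10 with the groups apart, at an exact permutation p of 0.0286 and an adjusted p of 1.0, and 0.392% of all genes had every Kbu library above every Kac library and 0.294% the reverse. Slc16a1 had 4, 7, 5 and 2 Kbu against 3, 4, 1 and 1 Kac regions under that setting (exact permutation p = 0.171), and Slc16a3, Slc5a8 and Abcg2 no longer had the groups apart. When only peaks with a pileup of at least 2 were counted, 8 of the 10 genes had every Kac library above every Kbu library, where 39.5% of all genes did, Slc16a1 among them with 3, 1, 1 and 1 Kbu against 7, 9, 5 and 7 Kac regions. The direction at Bsg turned under that setting, to 1, 1, 0 and 3 Kbu against 2, 6, 6 and 6 Kac regions (a difference of −3.75).

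The butyrate-treated cells and the intestine were set side by side. H3K18bu was called in both replicates at SLC16A1 and ABCG2 in both sources, 2 of the 6 CCD841 genes and 2 of the 3 intestinal genes, where 27.6% and 89.2% of the respective genes were shared over the 15993 protein-coding genes of the same name. H4K12bu was called at SLC16A1, SLC16A3 and BSG in both, 3 of the 8 CCD841 genes and 3 of the 3 intestinal genes, where 45.1% and 90.4% were. SLC16A1, which encodes MCT1, was the one gene with both Kbu marks in both sources. The intestinal Kbu regions of this gene had pileups of 1 or 2. With peaks of q below 0.05 alone, 0 mouse Kbu consensus regions of the 10 genes remained. In CCD841 cells no stretch at the canonical start of SLC16A1 was shared by the replicates of a mark, though single libraries had regions there. There 1 weak H4K12bu consensus region reached the outermost transcript start. In the intestine H3K18bu lay at the RefSeq start site, with pileups of 1 and 1 and of 2 and 1. ACADS had both Kbu marks at the start site in CCD841 cells and no Kbu consensus region in the intestine. FFAR2 and HCAR2 had no Kbu consensus region in either source. The sources differ in species, tissue, treatment and depth, and no test was made between them.

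Other genes of the same routes gave a wider view. Of 39 further genes for transport, sensing, activation, oxidation and ketone body metabolism, 32 had an H3K18bu and 30 an H4K12bu consensus region in CCD841 cells, where 75.8% and 76.6% of all protein-coding genes did, and the median was 2.0 regions for each mark, the value of all protein-coding genes. H3K18bu lay at the start site of 15 and H4K12bu of 7 of the 39, where 32.7% and 14.9% of all protein-coding genes had them. Among oxidation genes these were 10 and 5 of 17, and among further receptor genes 0 and 0 of 6. The genes with the most H3K18bu regions were SLC16A7, the gene of the carrier MCT2, with 16, OXCT1, which activates ketone bodies, with 13, and ACSS1, a mitochondrial acetyl-CoA synthetase, with 11. For H4K12bu they were OXCT1 with 18, ETFA, a subunit of the flavoprotein that takes electrons from acyl-CoA dehydrogenases, with 15, and CPT1A, which admits long-chain fatty acids to the mitochondrion, with 11.

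In mouse intestine 35 of the 39 genes were matched by name. H3K18bu consensus regions were found at 17 and H4K12bu at 14 of the 35, with 24 for H3K18ac and 26 for H4K12ac, where 20.5%, 33.7%, 58.7% and 61.4% of all protein-coding genes had these marks. Start sites were known for 28, and 9 of them carried H3K18bu and 9 H4K12bu in both replicates, where 7.02% and 16.7% of all protein-coding genes did. H3K18ac was at 12 and H4K12ac at 14 of the 28, where 23.8% and 27.6% of all protein-coding genes had them. In the mouse Kbu libraries 89.2% to 91.4% of peaks had a pileup of 1. The thresholds on q and pileup were not applied to these further genes. Whether their Kbu shares stay above those of all genes under such thresholds was not tested. Among the genes leading for H3K18bu were Slc16a7 with 3 regions and Acadm, the medium-chain acyl-CoA dehydrogenase, with 2, chosen among 4 genes with 2 by its −log10 p. For H4K12bu they were Acss1 with 6 and Cpt1a and Echs1, a hydratase of fatty acid oxidation, with 4 each.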

How the data were processed

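CUT&Tag libraries of 4 CCD841 and 8 mouse large intestine samples were analysed from the peak lists deposited by the authors. Per the labels and the study's methods, reads were trimmed (cutadapt 1.9.1), aligned (Bowtie2 2.3.1) to hg38 or mm10, and peaks were called per library with MACS2 2.1.0 at p below 0.01, without a control library, up to 300000 peaks. The authors deposited for each peak a fold enrichment over the local background, that is a ratio of pileups with 1 added to each, a −log10 p-value and a −log10 q-value. The deposited score column and the peak summits, which were out of range in 5 lists, were not used.

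Peaks of a library that overlapped were merged to regions. Each peak's pileup and background are the pair that gives its fold and its −log10 p-value, within a tolerance of 0.01. Regions overlapping a gene or its 10 kb flanks (GENCODE 44, GRCh38; RefSeq, GRCm38) by at least 1 bp were counted, and consensus regions hold a region of each replicate. Start sites were those of the canonical transcript in human and of RefSeq promoters in mouse, given for 8 of the 10 genes. Sequences of GRCm38.p6 are RefSeq's. The 10 genes, the lists, the markers and the motifs were chosen with earlier results of these data known. Further genes were named as the 3 with the most consensus regions per mark, of which 1 is not reported here, while the markers named were picked after their values were seen. Mouse Kbu and Kac libraries were compared by exact permutation over samples with Benjamini-Hochberg adjustment (Python 3.11.15, numpy 2.4.6, pandas 2.3.3, scipy 1.17.1, matplotlib 3.10.9), and the procedure was tested on simulated data. Nothing in the labels says that replicates came from separate cultures or animals, so p-values measure only the spread between these libraries, which may be technical. Library totals of reads were not given in the files, and the number of read ends behind a peak limits the precision. Alternatives were thresholds on q and pileup, the window, the start site definition, equal numbers of regions, a replicate block and leaving out each library.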

Additional observations from a re-analysis of the deposited data

Results flagged for a closer look

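In 5 mouse genes, 1 of the 4 Kbu libraries stood far from the other 3 in its number of regions. H4K12bu replicate 2 held 4 regions at Slc16a3 against 2 in each of the others, 3 at Slc16a4 against 0 and 2 at Hcar2 against 1. That library has the longest of the Kbu lists, 96332 regions. H3K18bu replicate 2 held 4 regions at Bsg against 5, and H4K12bu replicate 1 held 1 at Acads against 3. In each case the other 3 libraries held equal small whole numbers, which by construction sets any differing library apart. The rate of about 1 in 20 groups that chance gives for continuous values does not hold for such tied counts. In all, 20 groups, the Kbu and the Kac libraries of 10 genes, were examined.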

How the results depend on the processing

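With peaks of q below 0.05 (0.01), CCD841 H4K12bu fell to 19 (13) consensus regions and 0 (0) genes at a start site, mouse H3K18bu and H4K12bu to 0 genes and 0 regions, H3K18ac to 9 (3) regions at, under 0.01, 3 genes, and H4K12ac to 1 (1) region at 1 gene. Asking for a pileup of 2 or more from each replicate, an alternative chosen after seeing the data, also left 0 mouse Kbu regions at 0 genes. In gene bodies alone CCD841 H4K12bu had 18 regions at 5 genes, and mouse H3K18bu, H4K12bu and H4K12ac had 5, 2 and 7 regions. Within 3 kb flanks mouse H4K12bu had 2 regions. With equal numbers of regions per library, mouse H4K12bu had 2 regions at 1 gene, H3K18ac 12 regions and H4K12ac 1 region at 1 gene. Within 3 kb of the canonical start 2 CCD841 genes had H3K18bu and 2 H4K12bu, and within 1 kb of any transcript start, chosen after seeing the data, 3 and 3.

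Leaving out a replicate removes the demand for agreement, so counts rose: CCD841 H3K18bu to 49 to 51 regions and 2 to 4 genes at a start site, H4K12bu to 65 to 93 and 2 to 3, mouse H3K18bu to 23 to 30 regions at 7 to 9 genes, H4K12bu to 22 to 39 at 7 to 10, H3K18ac to 73 to 89 regions, and H4K12ac to 68 to 82 at 10 genes. The causes of the other changes were not tested.

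The adjusted exact test of Kbu against Kac gave 0 genes under every setting run. The design all but fixes this, and with the replicate block, which also gave 0 genes, the smallest p of 36 assignments, 0.0556, cannot pass, so it says nothing about stability. Without 1 Kbu library, 3287 to 4580 genes had fewer Kbu regions at an unadjusted p below 0.05, against 11706 with all, although the share of genes with every Kac above every Kbu library was 25.0% to 33.1% then and 23.4% with all. Without 1 Kac library there were 12740 to 15130. Differences of replicate 1 minus 2 correlated at −0.0388 to 0.0536 between Kbu and Kac marks over 36418 genes. They correlated at −0.0113 between H3K18bu and H4K12bu and at −0.335 between H3K18ac and H4K12ac. Most Kbu peaks had a pileup of 1, so the low correlations with Kbu cannot show whether replicate numbers pair libraries.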
